A study of Homo sapiens with 4 samples.

Results

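The miR-378 family was described across 4 small RNA libraries as the 4 mature miRNAs listed as hsa-miR-378, hsa-miR-378b, hsa-miR-378c and hsa-miR-378d, 4 of the 1733 miRNAs in each file. The members were taken by name, and the family was selected on its measured fold-changes between hepatic cancer stem cells (HCSCs) and hepatic cancer cells in these same libraries. Its differences between them are therefore given as a description, with no test. The libraries came from the human hepatoma lines Hep3B and Huh7 (hepatocellular carcinoma, HCC, cells) and from the stem-like cells that were cultured from each, Hep3B-C and Huh7-C, which the study calls hepatic cancer stem cells. The latter came from an enrichment system of the study, whose steps are not given in the sources used here. No treatment, time or engineered allele was given for any of them. Each of these 4 groups had 1 library, so no value has a replicate check, and every interval below is a 95% interval that covers counting error only. A difference between HCSCs and HCC cells therefore cannot be told apart from a difference between single cultures or single library preparations.

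MiRNAs are short RNAs cut from a hairpin and loaded into Argonaute proteins, where the seed (bases 2 to 8 from the 5′ end) pairs with target mRNAs and lowers their stability or translation. Of both arms of a hairpin, usually one is kept as the guide strand and the other is degraded as the passenger strand. The main hairpin of the family lies within the gene of PGC-1β (PPARGC1B), a coactivator of mitochondrial and lipid genes. In liver, muscle and fat, miR-378 is known for its part in energy and lipid metabolism.

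The sequences of the 3 members found by name in the RefSeq table (build GRCh38.p14) are shown 5′ to 3′, because the members differ by few bases and a read has to be assigned to one of them. Capitals mark the seed. Hsa-miR-378 is the older name of hsa-miR-378a-3p.
hsa-miR-378: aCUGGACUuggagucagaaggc
hsa-miR-378b: aCUGGACUuggaggcagaa
hsa-miR-378c: aCUGGACUuggagucagaagagugg
All 3 share 1 seed. Counted from 1 at the 5′ end, hsa-miR-378b differed from hsa-miR-378 by U14G over its 19 bases. Hsa-miR-378c shared its first 20 bases with hsa-miR-378 and differed by G21A and C22G, with 25 bases in all. Reads of 18 nt or more were kept by the authors, so a read that ended at or before base 20 could not be told apart between hsa-miR-378 and hsa-miR-378c by its sequence. How such reads were divided is not given in the sources used here, and the values of the minor members are uncertain to that extent. For hsa-miR-378d no sequence was found by name, so which of its reads could be told apart from those of hsa-miR-378 is not known.

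Outside the 4 members, the files listed hsa-miR-378e to hsa-miR-378i and hsa-miR-422a. Hsa-miR-378d and hsa-miR-378e were not found by name in the RefSeq table, so their seeds were not checked. Of all 2370 mature names in the table, 7 carried the seed of hsa-miR-378, and all 7 were in the files. The ones that are no members are shown to place the few reads they had.
hsa-miR-378f: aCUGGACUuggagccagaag
hsa-miR-378h: aCUGGACUuggugucagaugg
hsa-miR-378i: aCUGGACUaggagucagaagg
hsa-miR-422a: aCUGGACUuagggucagaaggc
Relative to hsa-miR-378 they carried U14C in hsa-miR-378f, A12U and A19U in hsa-miR-378h, U9A in hsa-miR-378i, and G10A and A12G in hsa-miR-422a. Hsa-miR-378g differed within the seed, by A6G, and so does not share the seed.

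The MIR378A hairpin lies at chr5:149732825-149732890 of GRCh38.p14 on the plus strand, and it is shown to place both arms, which are in capitals with the loop and ends in lower case.
MIR378A: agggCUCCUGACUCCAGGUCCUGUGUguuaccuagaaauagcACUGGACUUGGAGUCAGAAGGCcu
The left arm gives hsa-miR-378* and the right arm hsa-miR-378. GENCODE release 29 places the hairpin in an intron of PPARGC1B on the same strand. The mature hsa-miR-378b lies at chr3:10330262-10330280 in an intron of ATP2B2, a plasma membrane calcium pump, on the strand opposite to that gene. Hsa-miR-378c lies at chr10:130962634-130962658 on the minus strand, where GENCODE release 29 annotated no other gene. These positions come from RefSeq and GENCODE alone, since the files list names and counts.

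The miRNA counts summed to between 1739278 (Hep3B) and 5741567 (Huh7) per library. They made up 10.4% of the total reads of Hep3B, and Hep3B-C (35.2%), Huh7-C (37.8%) and Huh7 (54.1%) stood well above it. A level in TPM, the unit of the study, relates a count to 1000000 sequenced reads of any kind, other small RNAs included, and it carries this difference. Levels are therefore given as TPM and also per 1000000 miRNA counts. Of the marker lists, the 5 hepatocyte miRNAs summed to 16675 to 139807 TPM, with hsa-miR-122* at 0 counts in Hep3B only. Hsa-miR-122 itself had 397 counts in Hep3B, against 144814 to 489443 in the other libraries. Most of the Hep3B sum came from hsa-miR-192 (10671 TPM) and hsa-miR-148a (5678 TPM). The 7 blood cell miRNAs summed to at most 11 counts in 3 libraries and to 800 counts in Huh7, of which hsa-miR-451 had 773, and hsa-miR-144 and hsa-miR-150 were at 0 in every library. The endothelial pair hsa-miR-126 and hsa-miR-126* had 876 to 2209 counts. The 4 mesenchymal miRNAs had 19 to 1711 counts, and the 7 muscle miRNAs, of another tissue rich in miR-378, had 16 to 142 counts, with hsa-miR-208a and hsa-miR-208b at 0 throughout. Of the 8 pluripotent stem cell miRNAs, the 4 hsa-miR-302 miRNAs, hsa-miR-367 and hsa-miR-371-3p were at 0 in every library, and the list reached at most 9 counts, in Huh7-C. The part of these differences in the values below was not tested.

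Hsa-miR-378, the guide strand of MIR378A, carried almost the whole family. Hep3B gave 121101 counts and Hep3B-C 1298641, while Huh7 gave 267128 and Huh7-C 759746. Its part in the family counts was 99.3% in Huh7, 99.6% in Hep3B and Huh7-C alike, and 99.9% in Hep3B-C. Both HCSC libraries had more hsa-miR-378 than either HCC library.

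As a level, hsa-miR-378 stood at 7216 TPM in Hep3B (7175 to 7257) and 84106 TPM in Hep3B-C (83962 to 84251). In the Huh7 pair it stood at 25148 TPM in Huh7 (25053 to 25243) and 70906 TPM in Huh7-C (70747 to 71066). In TPM the order from low to high was Hep3B, Huh7, Huh7-C and Hep3B-C. No neighbours in this order overlapped in their counting intervals, and whether they differ beyond the spread between cultures cannot be told from single libraries.

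**Figure D1:**
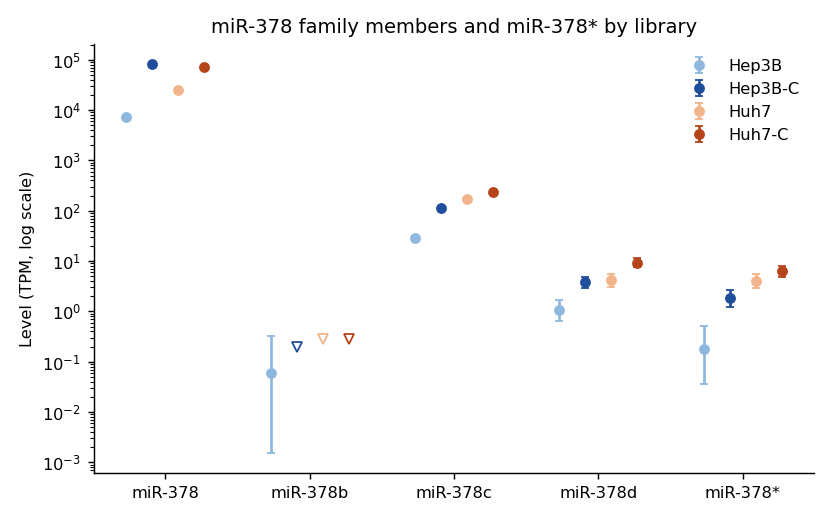
Level of each member and of hsa-miR-378*, in TPM on a log scale, in the 4 libraries (1 library each; points are the values, bars the 95% Poisson intervals of the counts, open triangles the level of 3 counts where the count was 0). The points of miR-378 lie between 7216 and 84106 TPM, above all points of miR-378c (28.9 to 241 TPM) and miR-378d (1.07 to 9.24 TPM).

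The share of the family in all miRNA counts needs no total of other reads. The summed family made up 6.99% of the miRNA counts of Hep3B (95% Clopper-Pearson interval 6.95 to 7.03) and 23.9% of those of Hep3B-C (23.9 to 24.0). It made up 4.68% of those of Huh7 (4.67 to 4.70) and 18.8% of those of Huh7-C (18.8 to 18.9). By this measure Huh7, and not Hep3B, was the lowest, but Hep3B was the lowest again once hsa-miR-21 and hsa-miR-122 were left out of the miRNA counts (8.63%, against 10.02% in Huh7). Both HCSC libraries stood above both HCC libraries either way.

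Within each library, hsa-miR-378 stood higher in the order of abundance in the HCSCs than in the cells they came from. It had rank 3 in Hep3B, between hsa-miR-192 (179088 counts) and hsa-miR-146a (116938 counts), and rank 1 in Hep3B-C, above hsa-miR-21 (568486 counts), a miRNA high in many tumours. Its rank in Huh7 was 4, between hsa-miR-122 (489443 counts), the hepatocyte miRNA, and hsa-miR-148a (256476 counts). Its rank in Huh7-C was 2, between hsa-miR-21 (1292482 counts) and hsa-miR-192 (469706 counts).

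**Figure D2:**
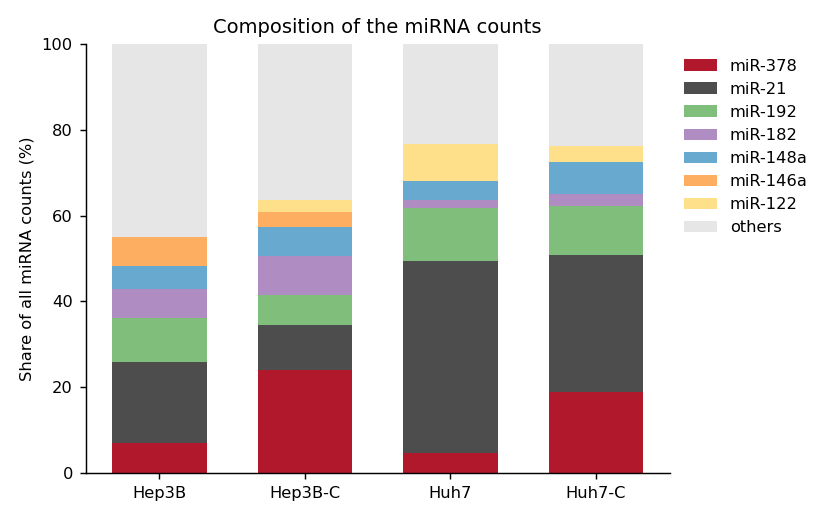
Share of all miRNA counts (in percent, from 0 to 100) taken by hsa-miR-378 and by 6 other abundant miRNAs in each library (1 library per bar). The bottom segment, miR-378, takes 6.96% of Hep3B and 23.9% of Hep3B-C, and 4.65% of Huh7 and 18.8% of Huh7-C.

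Hep3B-C was compared with Hep3B, and Huh7-C with Huh7, as the study pairs them, to see how the family differed between HCSCs and the HCC cells they came from. In TPM, hsa-miR-378 was 11.7-fold higher in Hep3B-C (11.6 to 11.7), a log2 fold-change of 3.54 (3.53 to 3.55). In Huh7-C it was 2.82-fold higher (2.81 to 2.83), a log2 fold-change of 1.50 (1.49 to 1.50). Relative to 1000000 miRNA counts, the Hep3B pair differed 3.43-fold and the Huh7 pair 4.04-fold. The pair with the larger difference thus depended on the scale, while the direction did not. The summed family followed its main member, with log2 fold-changes of TPM of 3.54 and 1.49.

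All miRNAs shifted with the scale. In the Hep3B pair, 475 miRNAs reached 10 counts in one library or both. Their median log2 fold-change of TPM was 1.46, and 67.4% were at least 2-fold higher in Hep3B-C. The 431 such miRNAs of the Huh7 pair had a median of -0.67, and 7.42% were at least 2-fold higher in Huh7-C. Hsa-miR-378 stood above these medians by 2.09 (Hep3B pair) and 2.17 (Huh7 pair) on the log2 scale. On the scale of miRNA counts, 17.7% of miRNAs were at least 2-fold higher in Hep3B-C and 15.3% in Huh7-C, and the medians were -0.31 and -0.15.

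Of the 4 members, hsa-miR-378, hsa-miR-378c and hsa-miR-378d had 10 counts or more in either library of each pair. In TPM, these 3 were at least 2-fold higher in Hep3B-C, and hsa-miR-378 and hsa-miR-378d were at least 2-fold higher in Huh7-C. Both of the latter were thus at least 2-fold higher in both pairs, as were 15 of the 359 miRNAs that could be compared in both (4.18%). Since the members were put together with these differences known, nothing is read from these counts.

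**Figure D3:**
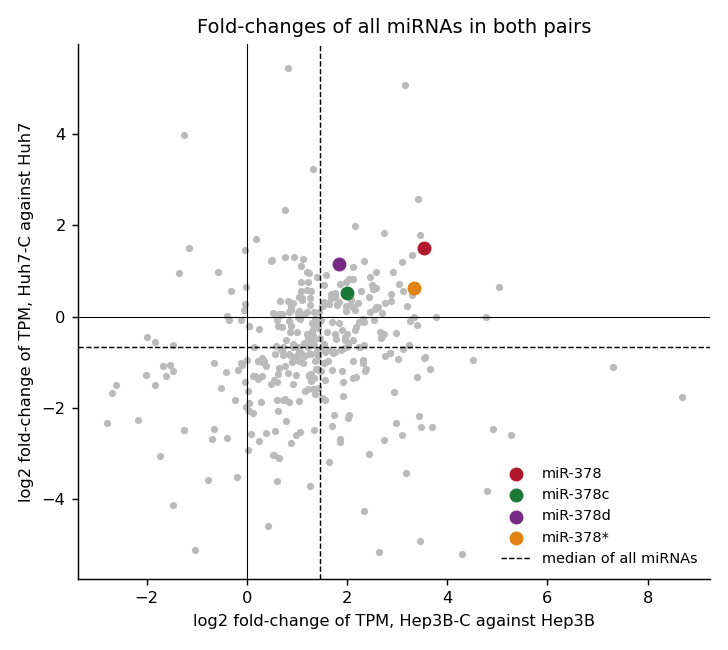
Log2 fold-change of TPM in the Hep3B pair (x axis) and the Huh7 pair (y axis) for the 359 miRNAs that reached 10 counts in each pair (1 point per miRNA, a count of 0 set to 3 counts; dashed lines are the medians over all miRNAs of a pair, 1.46 and -0.67). The coloured points, hsa-miR-378 at 3.54 and 1.50, hsa-miR-378c at 2.00 and 0.51, hsa-miR-378d at 1.83 and 1.16, and hsa-miR-378* at 3.34 and 0.63, lie above both medians.

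Among abundant miRNAs, those that reached 10000 counts in one library of a pair or both, hsa-miR-378 had the third largest fold-change of 43 in the Hep3B pair. Hsa-miR-122 (log2 fold-change 8.68) and hsa-miR-146b-5p (4.77) stood above it. Of 33 such miRNAs in the Huh7 pair it had the largest fold-change, followed by hsa-miR-148b at 1.30. These abundant miRNAs had median log2 fold-changes of 1.31 and -0.22 in the respective pairs. Without this limit to abundant miRNAs, hsa-miR-378 stood lower in the order of fold-changes of TPM. Counted from the largest, it had rank 38 of 475 miRNAs in the Hep3B pair and rank 18 of 431 in the Huh7 pair.

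The level of all miRNAs together went from 103636 to 351687 TPM between Hep3B and Hep3B-C, and the family gave 31.0% of this difference. Without the family, the sum of the other miRNAs was still higher in Hep3B-C, by 1.47 on the log2 scale. Between Huh7 and Huh7-C, the level of all miRNAs went from 540521 to 377532 TPM, while that of the family went from 25321 to 71156 TPM. The sum of the other miRNAs was lower there, with a log2 fold-change of -0.75.

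Hsa-miR-378c, the longer form with the same first 20 bases, was the second member in abundance. Hep3B gave 485 counts and Hep3B-C 1785, while Huh7 gave 1794 and Huh7-C 2581. These were levels of 28.9 TPM (26.4 to 31.6), 116 TPM (110 to 121), 169 TPM (161 to 177) and 241 TPM (232 to 250), in that order. In contrast to hsa-miR-378, its TPM was higher in Huh7 and Huh7-C than in both libraries of Hep3B origin, whereas per 1000000 miRNA counts Huh7 (312) lay between Hep3B (279) and Hep3B-C (329), and Huh7-C (638) above them.

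In TPM, hsa-miR-378c was 4.0-fold higher in Hep3B-C than in Hep3B (3.62 to 4.43) and 1.43-fold higher in Huh7-C than in Huh7 (1.34 to 1.52). Relative to 1000000 miRNA counts it was 1.18-fold higher in Hep3B-C and 2.04-fold higher in Huh7-C. Its log2 fold-change stood above the median of all miRNAs by 0.54 (Hep3B pair) and 1.18 (Huh7 pair).

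Hsa-miR-378d was a minor member, with 18 counts from Hep3B, 59 from Hep3B-C, 44 from Huh7 and 99 from Huh7-C. In the same order these were 1.07 TPM (0.636 to 1.70), 3.82 TPM (2.91 to 4.93), 4.14 TPM (3.01 to 5.56) and 9.24 TPM (7.51 to 11.2). The intervals of Hep3B-C and Huh7 overlapped, so that the order of these neighbours was not resolved at this depth. The Hep3B value lay below both and that of Huh7-C above both.

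In TPM, hsa-miR-378d was 3.56-fold higher in Hep3B-C than in Hep3B (2.07 to 6.42) and 2.23-fold higher in Huh7-C than in Huh7 (1.55 to 3.26). Per 1000000 miRNA counts, the difference in the Hep3B pair was 1.05-fold, with a log2 interval of -0.71 to 0.92 that holds no difference. It was 3.19-fold in the Huh7 pair, with a log2 interval of 1.15 to 2.22. On this scale hsa-miR-378c (1.18-fold) and hsa-miR-378d (1.05-fold) thus differed little between Hep3B and Hep3B-C, where hsa-miR-378 differed 3.43-fold.

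Hsa-miR-378b had 1 count in Hep3B and 0 in the other 3 libraries. A floor of 3 counts for these 0 counts stands for 0.194 TPM (Hep3B-C), 0.282 TPM (Huh7) and 0.280 TPM (Huh7-C), and their exact Poisson intervals end at 0.239, 0.347 and 0.344 TPM. No fold-change was computed for it.

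**Figure D4:**
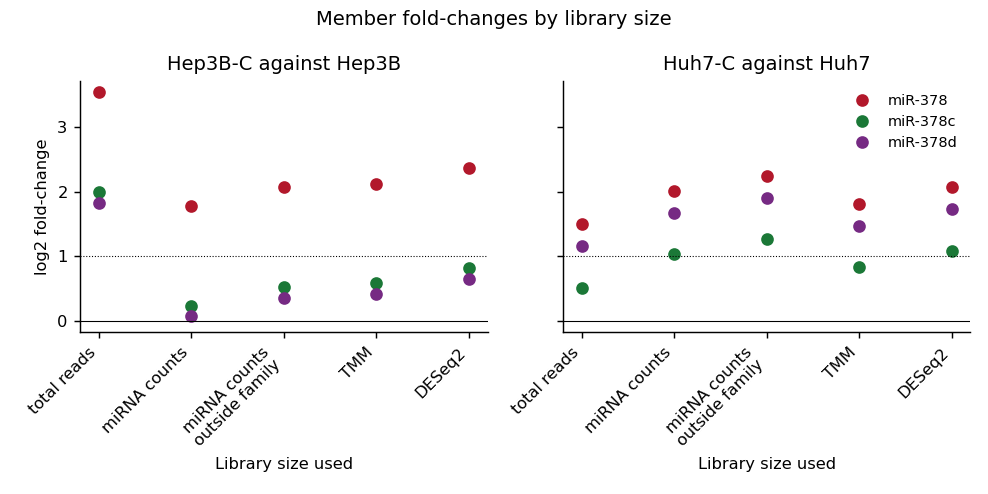
Log2 fold-change of hsa-miR-378, hsa-miR-378c and hsa-miR-378d in the Hep3B pair (left) and the Huh7 pair (right) for 5 choices of library size (1 value each; the dotted line marks a fold of 2). The points of miR-378 stay above 1 in both panels, from 1.78 to 3.54 on the left and from 1.50 to 2.25 on the right. Those of miR-378c and miR-378d pass 1 on the left only with total reads.

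Relative to hsa-miR-378 in the same library, the minor members were compared without any library size. Per 100000 counts of hsa-miR-378, hsa-miR-378c had 400.5 in Hep3B (366 to 438) and 137 in Hep3B-C (131 to 144). It had 672 in Huh7 (641 to 704) and 340 in Huh7-C (327 to 353). The ratio was lower in the HCSCs of both pairs, by 2.91-fold in the Hep3B pair (log2 change -1.54, interval -1.69 to -1.40) and by 1.98-fold in the Huh7 pair (log2 change -0.98, interval -1.07 to -0.90). Hsa-miR-378c was thus higher in the HCSCs, but less so than hsa-miR-378.

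Hsa-miR-378d had 14.9 counts per 100000 of hsa-miR-378 in Hep3B (8.81 to 23.5) and 4.54 in Hep3B-C (3.46 to 5.86). It had 16.5 in Huh7 (12.0 to 22.1) and 13.0 in Huh7-C (10.6 to 15.9). The Hep3B-C library stood below the other 3, whose intervals overlapped. The log2 change of the ratio was -1.71 for the Hep3B pair (-2.49 to -0.86) and -0.34 for the Huh7 pair (-0.86 to 0.21), the latter within counting error.

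Hsa-miR-378*, the other arm of MIR378A, is no member and had few reads. Its counts were 3 for Hep3B, 28 for Hep3B-C, 43 for Huh7 and 67 for Huh7-C. The level was highest in Huh7-C, at 6.25 TPM, and lowest in Hep3B, at 0.179 TPM. In TPM it was 10.1-fold higher in Hep3B-C than in Hep3B, with an interval of 3.13 to 52.1 that reflects the 3 counts. In Huh7-C it was 1.54-fold higher than in Huh7 (1.04 to 2.32). On the scale of miRNA counts, the Hep3B pair had a log2 fold-change of 1.58, with an interval of -0.11 to 3.94 that holds no difference, and the Huh7 pair one of 1.15 (0.57 to 1.73).

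Per 100000 counts of hsa-miR-378, hsa-miR-378* had 2.48 in Hep3B (0.511 to 7.24) and 2.16 in Hep3B-C (1.43 to 3.12). It had 16.1 in Huh7 (11.6 to 21.7) and 8.82 in Huh7-C (6.83 to 11.2). The Hep3B pair did not differ beyond counting error, with a log2 change of -0.20 (-1.90 to 2.16). The ratio was 1.83-fold lower in Huh7-C than in Huh7 (log2 change -0.87, interval -1.44 to -0.28). Huh7 stood above both libraries of Hep3B origin, and Huh7-C stood above Hep3B-C.

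This use of arms was one-sided also beside other hairpins. Among hairpins with both arms in the files and at least 10000 counts over both, the arm with fewer reads had a median of 87.3 per 100000 reads for the 21 hairpins of Hep3B, 280 for the 34 of Hep3B-C, 251 for the 27 of Huh7 and 103 for the 25 of Huh7-C. MIR378A was the third lowest in Hep3B, Hep3B-C and Huh7-C and the second lowest in Huh7. Hsa-miR-182 stood below it in all 4 libraries, hsa-miR-146a in Hep3B and Hep3B-C, and hsa-miR-192 in Huh7-C. In Hep3B (2.79 against 2.48) and Huh7 (16.4 against 16.1), hsa-miR-192 stood just above MIR378A. Those ranks were therefore not resolved beyond counting error.

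**Figure D5:**
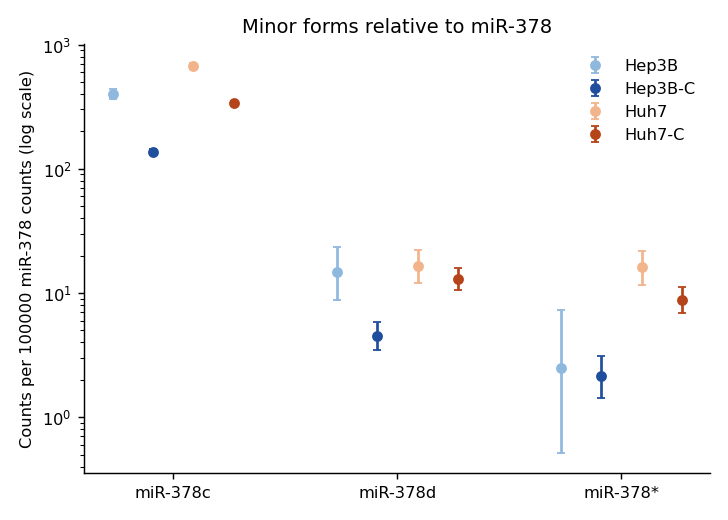
Counts of hsa-miR-378c, hsa-miR-378d and hsa-miR-378* per 100000 counts of hsa-miR-378 in each library, on a log scale (1 library each; bars are 95% exact binomial intervals). miR-378c goes from 400.5 to 137 in the Hep3B pair and from 672 to 340 in the Huh7 pair, and miR-378* lies at 2.48 and 2.16 in the Hep3B pair and at 16.1 and 8.82 in the Huh7 pair.

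The other forms were at the limit of the depth. Hsa-miR-378e had 10 counts in Hep3B-C and 0 in the other 3 libraries, at least 3.62-fold higher in TPM than in Hep3B when 3 counts are set for its 0. Hsa-miR-378f had 8 counts in Hep3B-C, against 2 (Hep3B), 3 (Huh7) and 1 (Huh7-C). Its ratio of 4.35 in TPM in the Hep3B pair had an interval of 0.868 to 42.0, which holds no difference. Hsa-miR-378g had at most 4 counts and hsa-miR-378i at most 2. Hsa-miR-378h and hsa-miR-422a had 0 counts in every library, so that the seed of the family was carried among the counts almost entirely by hsa-miR-378.

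The lines themselves were compared with the same libraries, so these values share libraries with those above. In TPM, hsa-miR-378 was 3.49-fold higher in Huh7 than in Hep3B (3.46 to 3.51), but per 1000000 miRNA counts it was lower, at 0.668 of the Hep3B value (with TMM and DESeq2 library sizes it was higher). The direction between the HCC lines therefore depended on the scale. For hsa-miR-378d it did so too, with a log2 difference of 1.95 in TPM and -0.43 per 1000000 miRNA counts (-1.25 to 0.45), whereas hsa-miR-378c was higher in Huh7 on both (2.55 and 0.16). The median log2 difference of 476 miRNAs between these lines was 1.59 in TPM and -0.79 per 1000000 miRNA counts. In TPM, 58% of them were at least 2-fold higher in Huh7. In the HCSCs, hsa-miR-378 in Huh7-C was at 0.843 of its TPM in Hep3B-C (0.841 to 0.845), and at 0.785 per 1000000 miRNA counts. With TMM and DESeq2 library sizes it was instead slightly higher in Huh7-C, so that the order of the HCSC libraries depended on the scale, within a fold of 2.

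The minor members differed more between the HCSC libraries. Hsa-miR-378c was 2.08-fold higher in Huh7-C than in Hep3B-C in TPM (1.96 to 2.21) and 1.94-fold higher per 1000000 miRNA counts. Hsa-miR-378d was 2.42-fold higher in TPM (1.73 to 3.40) and 2.25-fold higher per 1000000 miRNA counts. Of 502 miRNAs, 22.9% were at least 2-fold higher in Huh7-C in TPM. Their median log2 difference was -0.83 in TPM and -0.94 per 1000000 miRNA counts. Both minor members were thus higher in Huh7-C on these scales.

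The miRNAs whose pattern over the 4 libraries was most like that of hsa-miR-378 were found by the Euclidean distance of log2 TPM centred over the libraries. Of the 129 other miRNAs with at least 100 counts in every library, the 5 nearest were hsa-miR-548b-5p (distance 1.33), hsa-miR-146b-5p (1.37), hsa-miR-148a (1.43), hsa-miR-16 (1.49) and hsa-miR-25 (1.50), against a median distance of 2.85. All 5 had smaller log2 fold-changes of TPM than hsa-miR-378 in the Huh7 pair, between -0.35 (hsa-miR-16) and 0.83 (hsa-miR-25). Hsa-miR-378c was the 11th nearest, at a distance of 1.65. With a minimum of 10 counts in every library, other miRNAs were nearer, led by hsa-miR-760 (0.89), hsa-miR-4741 (0.90) and hsa-miR-338-5p (0.97). Among these 264 miRNAs, hsa-miR-378d was the 16th nearest (1.49) and hsa-miR-378c the 25th. In the Huh7 pair, hsa-miR-760 went from 1.69 to 6.07 TPM and hsa-miR-338-5p from 2.26 to 7.84 TPM, at low counts. These were larger fold-changes than that of hsa-miR-378. Those of hsa-miR-4741, hsa-miR-3942-5p and hsa-miR-107, also among the 5 nearest, were smaller. With 4 libraries all of this is a description only.

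Other miRNAs known to act in lipid and cholesterol metabolism of the liver were listed beside the family. Of 16 listed, 15 were in the files by name, and 10 counts or more were reached by 12 of them in the Hep3B pair and by 11 in the Huh7 pair. Hsa-miR-103 was not found by that name. The files have hsa-miR-103a, which the list counts leave out, with log2 fold-changes of TPM of 2.09 (Hep3B pair) and 0.36 (Huh7 pair). In TPM, 9 of 12 were at least 2-fold higher in Hep3B-C and 0 lower, where 67.4% of all miRNAs were higher (median log2 fold-change 1.27, against 1.46 for all miRNAs). Of 11 in the Huh7 pair, 0 were at least 2-fold higher and 5 were at least 2-fold lower, where 7.42% of all were higher (median -0.79, against -0.67). Among all miRNAs, 5.05% were at least 2-fold lower in Hep3B-C and 38.5% in Huh7-C. On the scale of miRNA counts, 3 listed miRNAs were higher and 2 lower in Hep3B-C, where 17.7% of all miRNAs were higher and 25.1% lower. In Huh7-C, 0 were higher and 4 lower, where 15.3% of all were higher and 24.8% lower. The part of the Hep3B library's low miRNA share in these counts was not tested.

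Hsa-miR-33a, which lies within the gene of the sterol regulator SREBF2, gave 89 counts from Hep3B, 284 from Hep3B-C, 97 from Huh7 and 119 from Huh7-C. The Hep3B pair differed by a log2 fold-change of TPM of 1.79 (1.45 to 2.15) and the Huh7 pair by 0.28 (-0.12 to 0.68). On the scale of miRNA counts this turned round, with 0.03 (-0.32 to 0.39) in Hep3B-C and 0.80 (0.40 to 1.20) in Huh7-C, so that which pair differed beyond counting error depended on the scale. Hsa-miR-107, which lies within the gene of a pantothenate kinase, had log2 fold-changes of TPM of 2.87 (2.56 to 3.19) and 0.34 (0.04 to 0.65), and of 1.11 and 0.86 on the scale of miRNA counts. Its interval in the Huh7 pair lay below that of hsa-miR-378.

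On chromosome 5, GENCODE release 29 placed 3 other miRNA genes with names in the files within 1000 kb of MIR378A. Hsa-miR-143, a miRNA of smooth muscle and mesenchymal cells, gave 427 counts from Hep3B, 1706 from Hep3B-C, 33 from Huh7 and 13 from Huh7-C. Hsa-miR-145 had 5 counts in Hep3B-C and 0 elsewhere, and hsa-miR-584 had at most 6. In TPM, hsa-miR-143 was higher in Hep3B-C than in Hep3B (log2 fold-change 2.12, interval 1.96 to 2.27), as hsa-miR-378 was, and lower in Huh7-C than in Huh7 (-1.36, interval -2.41 to -0.39), unlike hsa-miR-378. On the scale of miRNA counts these were 0.36 (0.20 to 0.51) and -0.84 (-1.89 to 0.13), the latter within counting error.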

How the data were processed

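Small RNA of 4 cell populations was sequenced on an Illumina Genome Analyzer II, with 1 library each. Before deposit, contaminant and redundant reads and those under 18 nt had been removed. SOAP (version not given in the sources used here) placed the remaining reads on NCBI Build 36.1, other small RNA classes were set aside, and the rest was searched against miRBase (release 17). Per library, the authors deposited 1 raw count for each of 1733 miRNAs, without normalization. How reads that match several miRNAs were counted is not given in the sources used here. TPM was computed from these counts and the total reads that the study gives for each library.

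Fold-changes are ratios of TPM with exact binomial 95% intervals of the counts given their sum, levels have exact Poisson intervals and shares Clopper-Pearson intervals. Reads carried no molecular identifiers, so intervals and the floor of 3 counts cover counting error only. The background of a pair was formed by miRNAs that reached 10 counts in one of its libraries or both, and a fold of 2 or more was called. No hypothesis test was run, since each group had 1 library and the members were chosen on these contrasts. The members and lists were chosen with earlier results of these data known. Named miRNAs were the members, other miR-378 forms and miRNAs of the same seed, the most abundant miRNA and rank neighbours in each library, the 5 most like hsa-miR-378, a list of liver lipid metabolism miRNAs and marker lists. MiRNAs named beside these (hsa-miR-146b-5p, hsa-miR-148b, hsa-miR-182, hsa-miR-584 and the neighbours on chromosome 5) were chosen after their values were seen. The same holds for hsa-miR-103a, hsa-miR-338-5p, hsa-miR-760, hsa-miR-3942-5p and hsa-miR-4741. Adapter ligation favours some sequences, so counts of different miRNAs are shares of reads, not of molecules. Alternatives were miRNA counts, TMM (edgeR 4.0.16) and DESeq2 1.42.0 size factors as library sizes, 0.5 counts added, other count filters and a fold of 4. Interval computation was tested on simulated data. Python 3.11.15 with scipy 1.17.1 and R 4.3.3 were used.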

Additional observations from a re-analysis of the deposited data

Results flagged for a closer look

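No member of the miR-378 family had opposite directions in the Hep3B and Huh7 pairs. Of the 11 lipid metabolism miRNAs listed beside the family that were counted in the Huh7 pair, 8 had log2 fold-changes of TPM of opposite sign in the pairs. Both counting intervals of these 8 were clear of 0. The 8 were hsa-miR-122 (Hep3B pair 8.68, Huh7 pair -1.77), hsa-miR-34a (0.59 and -3.62), hsa-miR-27b (0.60 and -1.82), hsa-miR-21 (0.91 and -1.002), hsa-miR-192 (1.23 and -0.60), hsa-miR-194 (1.32 and -0.40), hsa-miR-30c (1.16 and -1.63) and hsa-miR-185 (1.09 and -0.79). The difference between the pairs was not tested. Per 1000000 miRNA counts, 2 of the 8 still had opposite signs, hsa-miR-122 (6.92 and -1.25) and hsa-miR-194 (-0.45 and 0.11, with the order turned round), and 6 had the same sign in both pairs.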

How the results depend on the processing

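Every log2 fold-change of hsa-miR-378, hsa-miR-378c, hsa-miR-378d and the summed family kept its sign in both pairs under all 5 alternatives. For hsa-miR-378d in the Hep3B pair, the value with miRNA counts was 0.07 (-0.71 to 0.92), so that no direction was resolved there. Adding 0.5 counts changed no value beyond its counting interval. The library size moved the values most. For the summed family the log2 fold-change went from 3.54 in the Hep3B pair to 1.78 with miRNA counts, 2.07 with miRNA counts outside the family, 2.13 with TMM and 2.36 with DESeq2. For Huh7-C against Huh7 it went from 1.49 to 2.01, 2.24, 1.81 and 2.06 in the same order. In the Hep3B pair the same choices brought hsa-miR-378c to between 0.24 and 0.82 and hsa-miR-378d to between 0.07 and 0.65, below a fold of 2. For Huh7-C against Huh7, hsa-miR-378c passed a fold of 2 with miRNA counts (1.03), miRNA counts outside the family (1.26) and DESeq2 (1.09), but not with TMM (0.83). Without hsa-miR-21 and hsa-miR-122, the family share became 8.63% (Hep3B), 27.6% (Hep3B-C), 10.02% (Huh7) and 29.2% (Huh7-C), so that Huh7-C and not Hep3B-C was the highest and Hep3B and not Huh7 the lowest. Of total reads it was 0.725%, 8.42%, 2.53% and 7.12%.

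Counts of miRNAs past the fold moved too. From 320 higher and 24 lower in Hep3B-C, they became 84 and 119 with miRNA counts, 112 and 86 with miRNA counts outside the family, 118 and 84 with TMM, and 138 and 69 with DESeq2. A fold of 4 left 164 and 6, 10 counts in both libraries left 208 and 17, and no filter gave 452 and 98. From 32 higher and 166 lower in Huh7-C, they became 66 and 107, 95 and 90, 51 and 124, and 71 and 104 in the same order of library sizes. A fold of 4 left 12 and 71, 10 counts in both libraries left 20 and 97, and no filter gave 102 and 267. With a minimum of 10 counts in every library, 0 of the 5 miRNAs most like hsa-miR-378 were the same, and the nearest was hsa-miR-760 (distance 0.89). Changing the library size leaves these distances as they are by construction. The labels give no replicate numbers. Each fold-change between HCSCs and HCC cells was taken within a cell line. A model over both lines with the line as a block was not run, since the members were chosen on these contrasts. The depth limits hsa-miR-378b, hsa-miR-378e and hsa-miR-378*, with 3 counts or fewer in Hep3B.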
